A study of Mus musculus with 4 samples.

Results

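The miR-34 family was represented by 5 of the 1152 entries listed for these mouse aorta libraries, of which 1079 carry a miRNA name. The members were taken by name: miR-34a-5p from the 34a locus, and miR-34b-5p, miR-34b-3p, miR-34c-5p and miR-34c-3p from the 34b/c locus. The suffix names the hairpin arm from which the mature miRNA is cut. All 5 members passed the filter on low values, a mean of at least 1 CPM (counts per 1000000 reads) over the libraries, which 479 of the 1152 entries passed, 438 of them with a miRNA name.

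Aortas of 12-week wild type C57BL/6 mice were profiled by sequencing of small RNA (18 to 30 nucleotides) in 2 libraries labelled Sham and 2 labelled CKD (chronic kidney disease), a model of vascular calcification. Each library was a pool of 4 samples, so the spread between libraries is a spread between pools, and p-values measure only that spread. The labelled model removed part of the left kidney and, 1 week later, the right kidney, followed by a diet with 2% phosphate and drinking water with 0.45% NaCl for 4 weeks. The treatment text is worded identically for both groups, and the handling of Sham mice is not given separately in the sources used here. No other allele, transgene or agent is named for either group.

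The miR-34 miRNAs are known as direct transcriptional targets of p53, the DNA damage and stress responsive transcription factor, and are made from separate transcripts: miR-34a from its own locus, and miR-34b and miR-34c together from a shared primary transcript. They repress mRNAs of cell cycle and survival proteins such as CDK6, MYC and BCL2, and miR-34a also represses SIRT1. In the vessel wall miR-34a is known for its link to ageing, to senescence of endothelial and smooth muscle cells and to calcification of smooth muscle cells. miR-34b and miR-34c are best known from multiciliated epithelium, where they act beside miR-449, and from testis.

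The mature sequences show which members can be expected to share targets, because the seed, bases 2 to 8 from the 5′ end, is the main determinant of target pairing. They were matched by name to RefSeq (GRCm38.p6), which gave 4 of the 5 members. miR-34c-5p is named only, and the Mir34c hairpin is shown in its place, beside the Mir34b hairpin from the same locus. Capitals mark bases 2 to 8 in the mature sequences and, in the hairpins, the run GGCAGUG.
miR-34a-5p: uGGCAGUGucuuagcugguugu
miR-34b-5p: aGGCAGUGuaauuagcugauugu
miR-34b-3p: aAUCACUAacuccacugccauc
miR-34c-3p: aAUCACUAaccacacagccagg
Mir34b hairpin: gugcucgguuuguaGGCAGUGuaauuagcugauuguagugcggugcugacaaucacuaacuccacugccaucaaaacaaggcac
Mir34c hairpin: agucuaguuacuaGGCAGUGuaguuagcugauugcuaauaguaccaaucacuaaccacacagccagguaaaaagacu
The run GGCAGUG stood once in each hairpin, starting at base 15 of Mir34b and base 14 of Mir34c. miR-34a-5p and miR-34b-5p had the same seed. Compared position by position without gaps they differed at 11 of the first 22 positions, a count that an inserted base raises. miR-34b-5p is 23 bases long and miR-34a-5p 22. The 3p members had a different seed, AUCACUA, and differed from each other at 5 of 22 positions. Among listed entries with a RefSeq sequence, the seed GGCAGUG also occurred in miR-449a-5p and miR-449c-5p, while AUCACUA occurred in no entry other than miR-34b-3p and miR-34c-3p.

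The loci lie on different chromosomes. In GRCm38, miR-34a-5p is at chr4:150068473-150068494 on the plus strand, inside a hairpin at chr4:150068454-150068555. That hairpin is intergenic in GENCODE M21 apart from its last 17 bases, which overlap an exon of Gm37795 on the same strand, a gene model of the class still to be experimentally tested. On the minus strand of chromosome 9, miR-34b-5p is at chr9:51103610-51103632, miR-34b-3p at chr9:51103574-51103595 and miR-34c-3p at chr9:51103044-51103065. The Mir34b hairpin (chr9:51103562-51103645) and the Mir34c hairpin (chr9:51103034-51103110) are 451 bases apart, and both lie within an intron of Btg4, which is on the opposite strand.

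Between 16658810 and 17532748 reads were recovered per library, so 3 reads, the floor used for a count of 0, corresponded to between 0.171 and 0.180 CPM. miR-143-3p, a smooth muscle miRNA, took 79.8% and 72.5% of the reads in Sham 1 and Sham 2, against 41.1% and 40.8% in CKD 1 and CKD 2. All other entries shared the remaining 20.2%, 27.5%, 58.9% and 59.2%. The median entry was higher in CKD by 1.34 on the log2(CPM + 1) scale. That is 2.53-fold in CPM + 1, which the added 1 CPM pulls down and which is not comparable with folds of mean CPM. Results are therefore given on the deposited scale and after division by TMM factors, which assume that most entries are unchanged and brought that median to -0.00083. The smooth muscle list (miR-143 and miR-145a, both arms) summed to between 774990 and 833700 CPM in Sham, and to 485610 and 488710 CPM in CKD. miR-143-3p made up most of that sum and alone had a lower mean in CKD. As deposited, mean CPM rose from 40330 to 71850 for miR-145a-5p, 1348 to 2319 for miR-143-5p and 981 to 3402 for miR-145a-3p. The median difference of the list was 0.813, against 1.34 over all entries.

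miR-34a-5p and miR-34c-5p carried most of the family's reads in all 4 libraries. miR-34a-5p was at 28.25 and 33.18 CPM in Sham 1 and Sham 2 and at 106.83 and 87.76 CPM in CKD 1 and CKD 2. These values rest on 495, 560, 1873 and 1462 reads. Both CKD libraries lay above both Sham libraries, and the mean rose 3.17-fold, from 30.7 ± 3.49 CPM (SD, n = 2) to 97.3 ± 13.5 CPM (SD, n = 2).

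miR-34c-5p, the main product of the 34b/c locus, was at 25.91 and 22.04 CPM in Sham against 166.26 and 134.04 CPM in CKD, from 454, 372, 2915 and 2233 reads. Its mean rose 6.26-fold, from 24.0 ± 2.74 to 150.1 ± 22.8 CPM (SD, n = 2 in each group). It ranked 134 and 163 among all listed entries in Sham and at places 111 and 119 in CKD, whereas miR-34a-5p kept to places 128 and 143 in Sham against 128 and 130 in CKD.

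The other 3 members were present at a few CPM. miR-34b-5p was at 0.91 and 1.6 CPM in Sham against 6.1 and 2.76 CPM in CKD, from 16, 27, 107 and 46 reads. miR-34b-3p, from the opposite arm of that hairpin, was at 2.11 and 0.77 CPM in Sham against 7.13 and 7.38 CPM in CKD, from 37, 13, 125 and 123 reads. miR-34c-3p was at 0.68 and 0.59 CPM in Sham against 2.79 and 2.7 CPM in CKD, from 12, 10, 49 and 45 reads. For each of them the CKD libraries lay above the Sham libraries, and the Sham values rested on at most 37 reads.

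By mean CPM the order in Sham was miR-34a-5p, miR-34c-5p, miR-34b-3p, miR-34b-5p and miR-34c-3p. In CKD miR-34c-5p stood first and miR-34a-5p second, and their values did not overlap in either group. miR-34b-3p and miR-34b-5p overlapped in Sham, as did miR-34b-5p and miR-34c-3p in CKD. Levels of different miRNAs also carry the unequal capture of sequences by adaptor ligation, which a comparison of one miRNA between libraries shares.

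**Figure D1:**
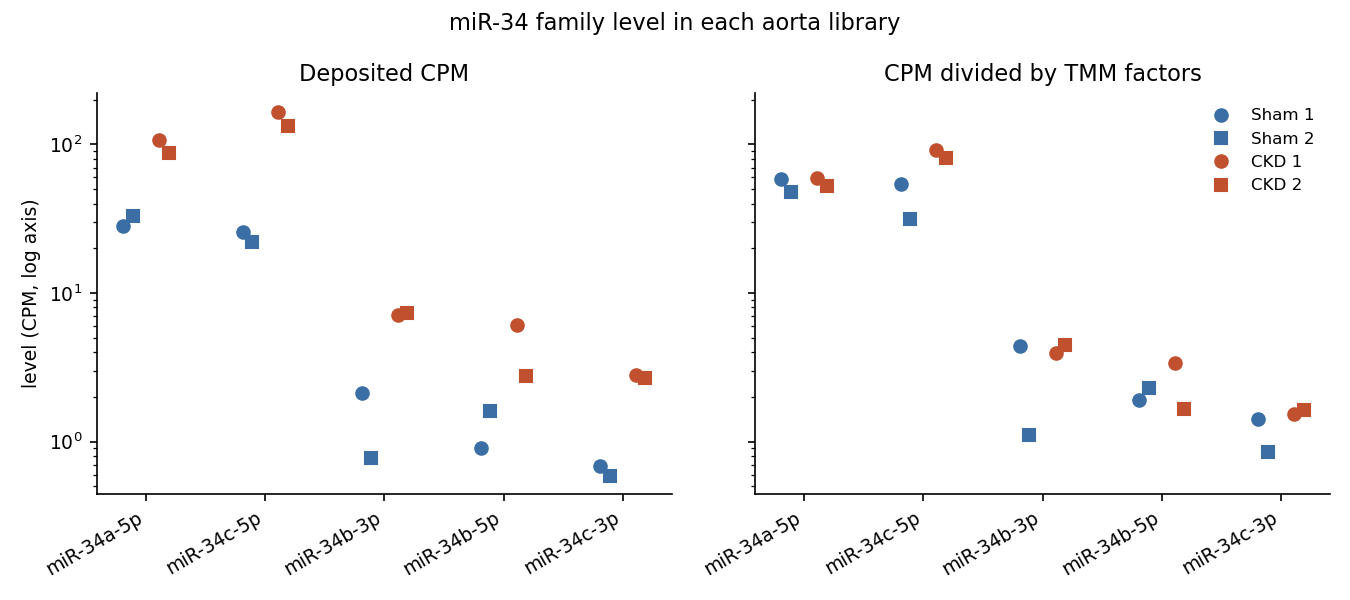
Level of each miR-34 member in each library (points, CPM on a log axis), as deposited on the left and after division by the TMM factors on the right. On the left every CKD point lies above every Sham point of the same member, and on the right the groups overlap for miR-34a-5p, miR-34b-3p and miR-34b-5p.

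On the deposited scale all 5 members were higher in CKD at a limma adjusted p under 0.05, as were 82.9% of the 479 entries tested, while 1.04% were lower. The count of members therefore did not stand apart from the entries at large. In 91.2% of the entries both CKD libraries lay above both Sham libraries, as they did for all 5 members. edgeR on the recovered reads called all 5 members higher, against 77.0% of entries, and DESeq2 called 4 of them, all but miR-34b-5p, against 66.0%. With library totals taken without the 10 most abundant entries limma called none of the 5 members, and only 9 of the 479 entries higher.

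What differed among the members was how far they moved. miR-34c-5p rose by 2.59 on the log2(CPM + 1) scale (SE 0.38, 95% interval 1.76 to 3.42, limma adjusted p = 6.8e-04), and only 8 of the 479 entries had a larger difference. miR-34b-3p rose by 1.81 (SE 0.33, limma adjusted p = 0.0012), with 87 entries above it. miR-34a-5p rose by 1.63 (SE 0.38, 95% interval 0.81 to 2.45, limma adjusted p = 0.0029), with 147 entries above it. The differences of these members were above the median entry.

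miR-34b-5p and miR-34c-3p rose by 1.21 (SE 0.36, limma adjusted p = 0.0094) and 1.20 (SE 0.31, limma adjusted p = 0.005), both under the median entry. At their low levels the added 1 CPM pulls the difference down, and the ratios of their means were 3.53 and 4.32. The call of miR-34a-5p was lost without CKD 1 (limma adjusted p = 0.12) and without CKD 2 (limma adjusted p = 0.064). That of miR-34b-5p was lost without CKD 1 (limma adjusted p = 0.068) and without Sham 1 (limma adjusted p = 0.13), with limma leaving 1 library in an arm that is assumed to vary like the other group.

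Divided by the TMM factors, the miR-34a-5p levels of the groups overlapped, at 59.0 and 47.7 CPM in Sham against 59.1 and 52.9 CPM in CKD. Its difference was 0.07 (SE 0.16, 95% interval -0.36 to 0.51, limma adjusted p = 0.79), and 210 of the 479 entries had a larger one. A change within that interval, in either direction, was not detectable here.

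miR-34c-5p stayed apart between the groups on that scale, at 54.1 and 31.7 CPM in Sham against 91.9 and 80.7 CPM in CKD, a ratio of means of 2.01. The difference was 1.04 (SE 0.29, 95% interval 0.28 to 1.80), larger than in 95.2% of the entries. It was 0.67 without Sham 2 and 1.41 without Sham 1. It did not pass the test in limma, with an unadjusted p of 0.018 and an adjusted p of 0.11. edgeR did not call it either, where it called 1.67% of entries higher. DESeq2 on the recovered reads, scaled by median-of-ratios factors in place of TMM factors, called it with an adjusted p of 0.014. The 2 Sham libraries differed more from each other here than the 2 CKD libraries did.

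None of the other 3 members passed the limma test after TMM scaling. miR-34b-3p was at 4.41 and 1.11 CPM in Sham against 3.94 and 4.45 CPM in CKD, so Sham 1 was level with CKD and Sham 2 was the low library. Its difference was 0.62 (SE 0.48, limma adjusted p = 0.44). miR-34b-5p differed by 0.14 (SE 0.30, limma adjusted p = 0.78) with overlapping groups, and miR-34c-3p by 0.29 (SE 0.23, limma adjusted p = 0.45) with CKD at 1.54 and 1.63 CPM above Sham at 1.42 and 0.85 CPM.

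With limma after TMM scaling 0 of 5 members were called higher, where 1.88% of entries were called higher and 5.85% lower. At an unadjusted limma p under 0.05, 1 member was higher, miR-34c-5p, against 10.6% of entries. DESeq2, scaled by median-of-ratios factors, called 1 of 5 members higher, against 5.43% of entries. Both CKD libraries exceeded both Sham libraries for 2 of 5 members, miR-34c-5p and miR-34c-3p, against 28.0% of entries. All 5 differences were above 0, as were 49.9% of the differences over all entries, but the signs of miR-34a-5p, miR-34b-5p and miR-34b-3p turned when single libraries were left out and that of miR-34a-5p also under upper-quartile scaling.

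**Figure D2:**
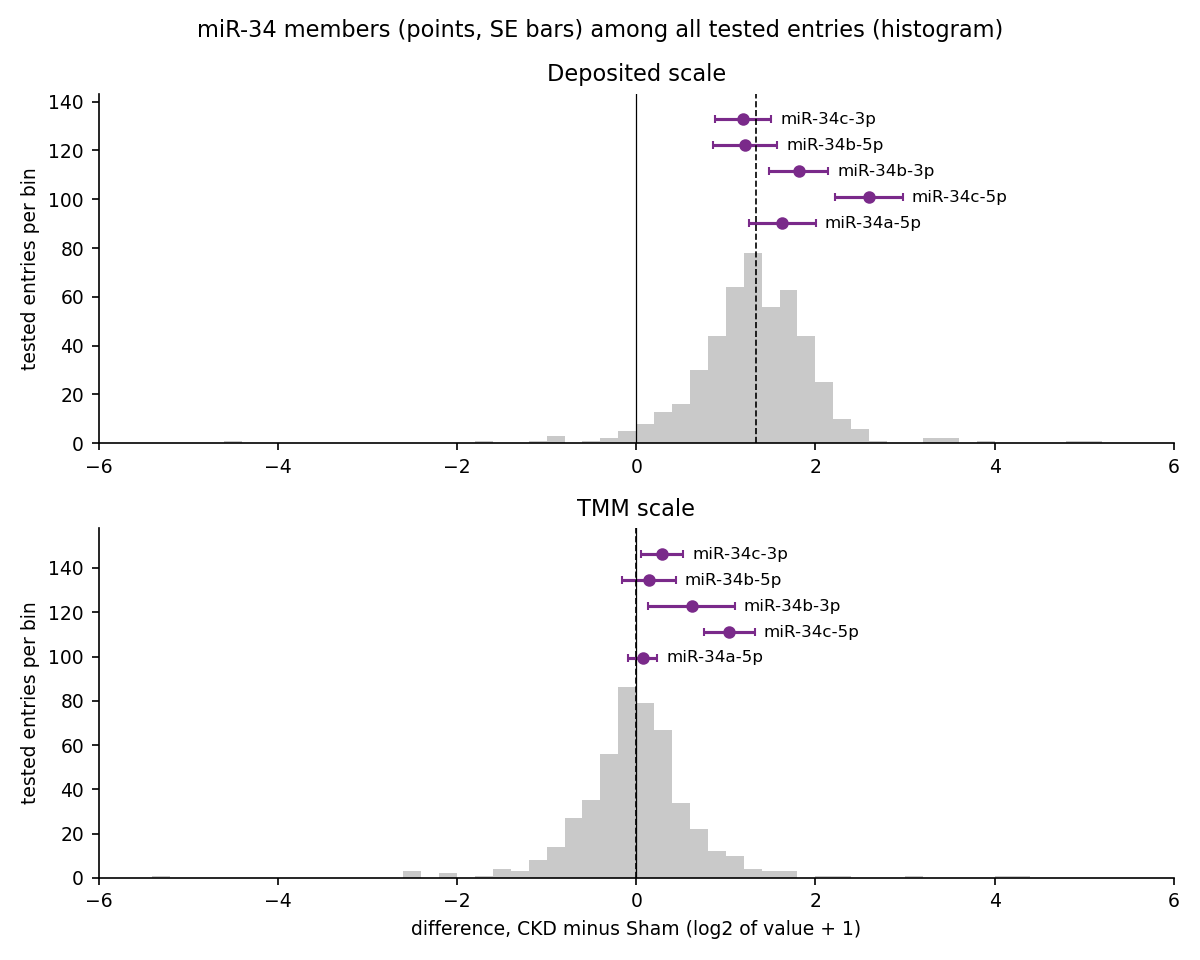
Difference CKD minus Sham of each miR-34 member (points, bars SE, log2 of value + 1) above a histogram of the 479 tested entries, on the deposited scale (top) and after TMM scaling (bottom). The dashed line is the median entry, at 1.34 in the top panel; miR-34c-5p, at 2.59 and 1.04, is the member farthest to the right in both panels.

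The comparison of the 34a locus with the 34b/c locus was made as a ratio within each library, which no scaling factor can change. The 4 products of the 34b/c locus summed to 29.6 and 25.0 CPM in Sham against 182.3 and 146.9 CPM in CKD. Their ratio to miR-34a-5p was 1.05 in Sham 1 and 0.754 in Sham 2, against 1.71 in CKD 1 and 1.67 in CKD 2. In reads of the family, the 34b/c locus gave 51.2% and 43.0% in Sham against 63.0% and 62.6% in CKD. The balance lay further toward 34b/c in both CKD libraries than in either Sham library, and the CKD libraries were nearly alike.

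The mean log2 ratio was -0.17 ± 0.34 in Sham and 0.76 ± 0.02 in CKD (SD, n = 2 in each group), a difference of 0.93 or a 1.90-fold higher ratio. The two-sided exact permutation p was 0.333, the smallest that 2 libraries against 2 allow, and 0.555 after Benjamini-Hochberg adjustment over the 5 ratios computed. The difference kept its direction without each library in turn, at between 0.69 (without Sham 2) and 1.17 (without Sham 1). Most reads of the 34b/c locus were miR-34c-5p, and its ratio to miR-34a-5p alone was 0.917 and 0.664 in Sham against 1.56 and 1.53 in CKD.

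As a share of the reads of these main products, miR-34c-5p made up 47.8% in Sham 1 (Wilson 95% interval 44.7% to 51.0%) and 39.9% in Sham 2 (36.8% to 43.1%). It made up 60.9% in CKD 1 (59.5% to 62.3%) and 60.4% in CKD 2 (58.8% to 62.0%). The intervals cover counting error only, since reads without molecular identifiers are not independent molecules. The Sham intervals did not overlap each other, and both lay under the CKD intervals. Because the intervals count reads as independent, they cannot show whether the Sham pools differed beyond the counting error of molecules.

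A fit added after the data were seen expressed every entry as its ratio to miR-34a-5p, with 1 CPM added to both, and tested it with limma. There miR-34c-5p was 0.96 higher in CKD on the log2 scale (SE 0.23, 95% interval 0.38 to 1.55), with an unadjusted limma p of 0.0076 and an adjusted p of 0.066. Of the 478 entries, 8 had a larger difference. No member of the 34b/c locus was called, where 0.837% of entries were called higher. With nothing added, both CKD ratios exceeded both Sham ratios for 2 of the 4 members, miR-34c-5p and miR-34c-3p, against 19.3% of the 456 entries with reads in every library. Without Sham 1 the difference of miR-34c-5p was 1.19 with a limma adjusted p of 0.015, and without Sham 2 it was 0.74 with a limma adjusted p of 0.13. Without CKD 1 or CKD 2 the limma adjusted p was 0.16 or 0.14. miR-34b-3p differed from miR-34a-5p by 0.19 (limma adjusted p = 0.78), miR-34b-5p by -0.42 (limma adjusted p = 0.36) and miR-34c-3p by -0.43 (limma adjusted p = 0.28) in the same fit. The negative signs of miR-34b-5p and miR-34c-3p come with the added 1 CPM, which is large beside their levels. With nothing added, the log2 ratio to miR-34a-5p was 0.10 higher in CKD for miR-34b-5p, with overlapping groups, and 0.45 higher for miR-34c-3p (exact permutation p = 1.0 and 0.333).

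**Figure D3:**
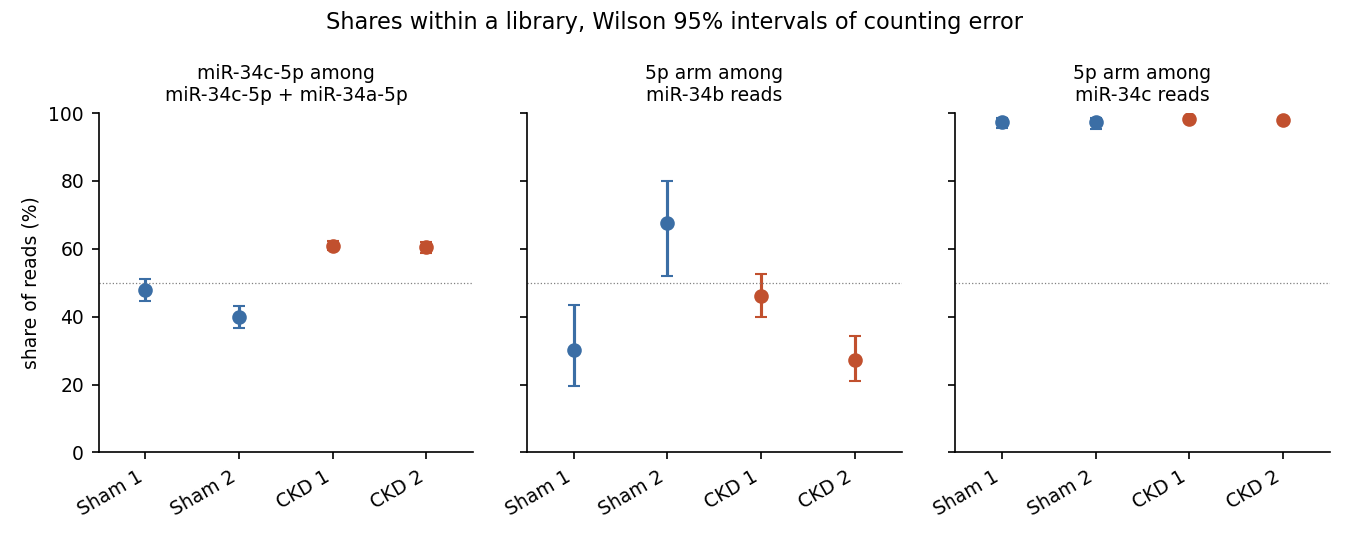
Shares of reads within each library (points, percent, bars Wilson 95% intervals of counting error): miR-34c-5p among miR-34c-5p and miR-34a-5p reads, and the 5p arm among all reads of miR-34b and of miR-34c. miR-34c-5p lies at 47.8% and 39.9% in Sham and at 60.9% and 60.4% in CKD, the miR-34b 5p shares scatter on both sides of the dotted line at equal use, and the miR-34c 5p arm is near the top throughout.

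The arms of the hairpins were used very unequally, except in miR-34b. The 5p arm held 97.4% of the miR-34c reads in both Sham libraries and 98.3% and 98.0% in CKD 1 and CKD 2. The Wilson 95% intervals overlapped between the groups, at 95.6% to 98.5% and 95.2% to 98.6% in Sham 1 and Sham 2. In CKD 1 and CKD 2 they were 97.8% to 98.7% and 97.4% to 98.5%. The 3p arm of miR-34c had only 12 and 10 reads in Sham. miR-34a was more one-sided still: its 3p arm, miR-34a-3p, had 2 and 2 reads in Sham and 12 and 8 in CKD, which put the 5p share between 99.4% and 99.6%. The log2 ratio of the 5p to the 3p arm was higher in both CKD libraries for miR-34c, by 0.53, and lower for miR-34a, by -0.65, each with an exact permutation p of 0.333. With 1 CPM added to both arms the second became 1.13, so with so few 3p reads its direction depends on that choice.

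In miR-34b the arm with more reads changed from library to library. The 5p share was 30.2% in Sham 1 (16 of 53 reads, Wilson 95% interval 19.5% to 43.5%) and 67.5% in Sham 2 (27 of 40 reads, 52.0% to 79.9%). It was 46.1% in CKD 1 (107 of 232 reads, 39.8% to 52.5%) and 27.2% in CKD 2 (46 of 169 reads, 21.1% to 34.4%). The groups overlapped, and the intervals of libraries of the same group did not overlap each other. These intervals count reads as independent, so they cannot show whether pools differed beyond the counting error of molecules. The log2 ratio of the arms differed by -0.74 between the groups (exact permutation p = 0.667), and by 0.39 without Sham 2. The products of the shared 34b/c transcript were also unequal: miR-34c-5p exceeded miR-34b-5p 28.5-fold and 13.8-fold in Sham against 27.3-fold and 48.6-fold in CKD, with overlapping groups (exact permutation p = 0.667).

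The miR-449 miRNAs, which share the GGCAGUG seed, were far lower. miR-449a-5p was at 0.4 and 0.83 CPM in Sham against 1.37 and 0.54 CPM in CKD, from 7, 14, 24 and 9 reads, and its groups overlapped. miR-449c-5p had 0 reads in Sham 1 and CKD 1 and 1 read in each of the others. miR-34a-5p, miR-34c-5p and miR-34b-5p therefore held most of the reads listed for this seed in these aortas.

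The entries whose pattern over the 4 libraries was most like that of each member were taken by the Euclidean distance between centred log2(CPM + 1) values. For miR-34a-5p they were miR-30b-3p (0.0718), miR-151-3p (0.0858) and miR-29c-3p (0.0876). For miR-34c-5p the nearest were farther off: miR-132-5p (0.436), at 1.71 and 2.07 CPM in Sham against 13.69 and 12.73 CPM in CKD, then miR-29a-3p (0.541) and miR-212-3p (0.545). Other members of the family were not allowed among the nearest entries. The distance between miR-34a-5p and miR-34c-5p was 1.02, larger than the distance of either to its nearest entries given here.

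The lower members had near entries of their own. miR-34c-3p was closest to miR-669b-5p (0.0981), miR-34b-5p to miR-6240 (0.162) and miR-34b-3p to let-7c-1-3p (0.431). With 4 libraries and a shift shared by most entries these distances are a description, and they depend on the pseudocount: with 10 in place of 1, none of the 3 nearest entries of miR-34a-5p and 1 of the 3 of miR-34c-5p remained.

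Other miRNAs known to be induced by p53, or processed with its help, were taken as a list of 15, of which 14 were listed and tested. On the deposited scale 13 were higher and 1 lower with limma, where 82.9% of all entries were higher and 1.04% lower, with a median difference of 1.55 against 1.34 over all entries. Fewer were called without CKD 1 or without CKD 2, both in this list and over all entries. After TMM scaling none was called higher and 2 were lower, against 1.88% and 5.85% of all entries, with a median of 0.10 against -0.00083. The 2 called were miR-143-3p, which fell by 2.48 (SE 0.24, limma adjusted p = 0.012), and miR-145a-5p, which fell by 0.73 (SE 0.13, limma adjusted p = 0.044). Both are smooth muscle miRNAs whose maturation p53 is known to aid. miR-145a-5p was higher in CKD on the deposited scale, by 0.85 (limma adjusted p = 0.0043), so its direction turned with the scaling. With any 1 library left out miR-145a-5p lost its call after TMM scaling, and miR-143-3p lost its call without CKD 1 or without CKD 2 (limma adjusted p = 0.19 in both).

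Of the transcriptional targets in that list, miR-192-5p, a p53-induced miRNA of kidney and gut, was at 31.33 and 44.02 CPM in Sham against 209.55 and 135.3 CPM in CKD. After TMM scaling its difference was 0.59 (SE 0.21, limma adjusted p = 0.17). miR-194-5p, from the same precursor cluster, differed by 0.24 (SE 0.12, limma adjusted p = 0.29). These 2 were named after their values were seen.

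miRNAs known to repress p53 itself made a list of 7. On the deposited scale 6 were higher with limma, against 82.9% of all entries. Without CKD 1 fewer were called, as was the case over all entries. After TMM scaling none of the list was called, with a median of -0.00215. Its most abundant members were miR-125b-5p, at 9932.89 and 14060.52 CPM in Sham against 32308.85 and 38712.85 CPM in CKD, and miR-30d-5p, at 2263.61 and 3335.8 CPM in Sham against 8725.39 and 7778.77 CPM in CKD.

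Of 9 miRNAs linked to senescence in the vessel wall, 8 were tested. All 8 were higher on the deposited scale with limma, as were 82.9% of all entries. Without CKD 1 or without CKD 2 fewer were called, both in this list and over all entries. After TMM scaling 1 was called higher, against 1.88% of all entries: miR-29b-3p, known for repressing mRNAs of extracellular matrix proteins, which rose by 0.95 (SE 0.14, limma adjusted p = 0.038) from 58.39 and 87.03 CPM in Sham to 472.94 and 362.63 CPM in CKD as deposited. It lost that call with any 1 library left out. The median of the list was -0.07. The endothelial senescence miRNA miR-217-5p had no reads in Sham and 0.06 and 0.12 CPM in CKD, under the floor.

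**Figure D4:**
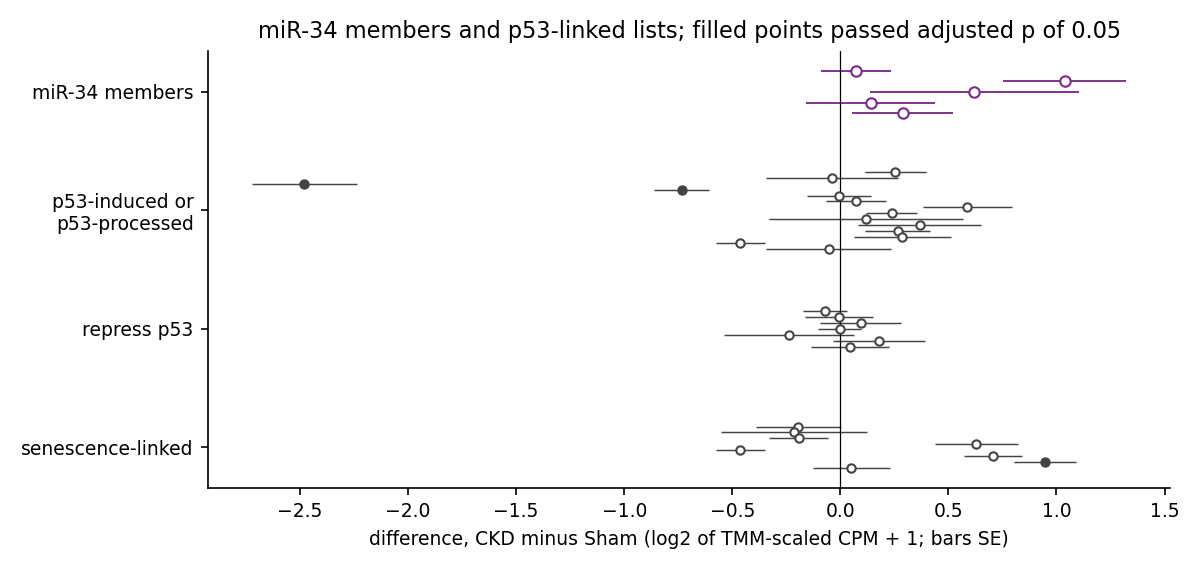
Difference CKD minus Sham after TMM scaling (log2 of value + 1, bars SE) of the miR-34 members and of 3 p53-linked or senescence-linked lists, with entries past a limma adjusted p of 0.05 filled. No miR-34 member is filled; the filled points are miR-143-3p at -2.48 and miR-145a-5p at -0.73 in the first list and miR-29b-3p at 0.95 in the last.

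Markers of other cell types were read beside the members, because fewer cells of a type and less RNA per cell cannot be told apart in bulk tissue. The multiciliated epithelium list has 5 names, of which 4 were listed. It summed to 27.2 and 24.5 CPM in Sham against 173.7 and 137.4 CPM in CKD, but miR-34c-5p and miR-34b-5p are 2 of its members, and its defining miR-449 members were at most at 1.37 CPM. The epithelium list (the miR-200 family, miR-205, miR-203 and the miR-183 cluster) summed to 57.98 and 70.81 CPM in Sham against 288.4 and 218.5 CPM in CKD. Of its 10 members 9 were higher on the deposited scale with limma, against 82.9% of all entries. Fewer of them were called without CKD 1 but not without CKD 2, while over all entries fewer were called without either. None was called after TMM scaling, where the median was 0.32. The epithelial median was thus above that of all entries on both scales, as was miR-34c-5p. On the deposited and TMM scales the same held for neurons (1.82 and 0.76), red cells (1.88 and 0.33) and endothelium (1.67 and 0.08). It also held for the liver miRNA (3.58 and 2.19). The leukocyte, striated muscle and smooth muscle medians were not above it on both scales. The part of epithelial cells in the miR-34 values was not tested.

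Other marker lists also moved with the groups or with single libraries. Endothelial miR-126a summed to 2899 and 3411 CPM in Sham against 9989 and 9767 CPM in CKD. The leukocyte list summed to 75.9, 219.0, 409.1 and 445.9 CPM and the red cell list to 219.4, 840.6, 1035 and 4804 CPM in Sham 1, Sham 2, CKD 1 and CKD 2. miR-122-5p, the defining miRNA of liver, was at 1.43, 25.48, 160.67 and 55.95 CPM in the same order. The neuron list summed to 34.3 and 39.4 CPM in Sham against 122.1 and 160.6 CPM in CKD. For the striated muscle list the sums were 509.0 and 622.2 CPM in Sham against 1204 and 972.6 CPM in CKD. No member of these 6 lists passed limma's test after TMM scaling, and their part in the miR-34 values was not tested.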

How the data were processed

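Deposited values sum to about 1000000 in each library and were read as CPM computed by the authors. In 3 of the 4 deposited files names and values stand in 1 column (unit other) and were paired by position. Within a tolerance of 0.005 CPM, 100% of them in each library came out as whole reads, which were recovered. Per the submitters' processing notes, Bowtie (version not stated) and GRCm38 were used. The counting and the miRNA annotation are not stated.

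limma 3.58.1 (R 4.3.3, trend, two-sided, Benjamini-Hochberg threshold 0.05) was fitted to log2(CPM + 1) of 479 entries that averaged at least 1 CPM, with and without division by TMM factors (0.479, 0.696, 1.81 and 1.66 for Sham 1, Sham 2, CKD 1 and CKD 2). edgeR 4.0.16 and DESeq2 1.42.0 were run on the recovered reads as alternatives. Beside the TMM scale DESeq2 used median-of-ratios factors in place of TMM factors. Ratios were compared with an exact permutation test. The fits were also run on simulated data in which 200 entries were changed, as many up as down. That simulation held no shift shared by most entries, so it did not test the fits under the shift seen here. Sham and CKD were the labelled groups, and all 4 libraries were used.

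The members, lists and tests were chosen with earlier results of these data known. Named were the members, miRNAs with their seeds, the 3 nearest entries of each member, and list members called after TMM scaling (up to 4) or else the 2 most abundant. Libraries of a group differed beyond the counting noise of independent reads (chi-square 310.5 and 219.9 per degree of freedom), so none was treated as deposited in duplicate. No batch is labelled.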

Additional observations from a re-analysis of the deposited data

How the results depend on the processing

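With library totals without the 10 most abundant entries, 28 entries in place of 402 and 0 members in place of 5 were called by limma on the deposited scale, and miR-145a-5p turned to -0.69. With a mean of at least 10 CPM as the filter, 241 of the 265 entries tested were called, against 402 of 479 in the main fit. The 241 included 2 members, the only members tested. Leaving out 1 library gave between 143 (without CKD 1) and 392 calls (241 without CKD 2) and between 3 and 5 members. After TMM scaling, where 37 entries were called, DESeq2 called 74 and 1 member, no filter 21, and leaving out 1 library between 5 (without CKD 2) and 13. miR-34a-5p there was -0.0198 with upper-quartile scaling, -0.0051 without CKD 1 and -0.0717 without Sham 2 but 0.21 without Sham 1, miR-34b-5p was -0.20 without CKD 1 and 0.475 without CKD 2, and miR-34b-3p was -0.0563 without Sham 2 and 1.39 without Sham 1, while miR-34c-5p stayed between 0.67 (without Sham 2) and 1.41 (without Sham 1). The ratio of miR-34c-5p to miR-34a-5p in limma was between 0.74 (without Sham 2) and 1.19 (without Sham 1). With 1 CPM added, the arm ratios differed by 1.40 for miR-34c and 1.13 for miR-34a.

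The numbers of the libraries are not labelled as a pairing. Deviations of Sham 1 and CKD 1 correlated at 0.0999 over the entries, which with 2 libraries a group cannot exclude a pairing. With the number as a replicate block 10 entries were called after TMM scaling and no member. Counts of called members of the 12 lists moved by over 1.5 times in 46 of 156 combinations of list and setting on the deposited scale and in 31 of 168 after TMM scaling. The locus ratio kept its direction in every alternative run. With 2 pools a group and at most 37 Sham reads for 3 members, smaller changes were not detectable, and the causes of these changes were not tested.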
